A study of Mus musculus with 4 samples.

Results

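Glycolysis and hypoxia genes were examined as a set of 34 listed genes, 20 of glycolysis and its control and 14 of the response to low oxygen. Members were taken by symbol from a table of 13976 genes, and 34 of the 34 were found. The rule itself uses no measured value, but the members, and the gene lists read beside them, were chosen with earlier results of these data known. Each member was compared across 4 cell populations sorted from tumours of EO771, a line of mouse mammary carcinoma cells. They were a dendritic cell (DC) with intermediate CD103 and with CD11b (CD103int DC), the CD103+ conventional DC of type 1 (cDC1), the CD11b+ conventional DC of type 2 (cDC2) and macrophages. Each was measured as 1 bulk RNA library, so no difference below was set against replicate error, and no test, SD or p-value is given. The labels share 1 tissue, the EO771 tumour, and state neither gates, numbers of mice or pooling, nor whether any mice received the heterodimeric interleukin-15 that the study's title names.

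Glycolysis breaks glucose down to pyruvate in the cytosol and yields ATP without oxygen, and pyruvate is then reduced to lactate or burned in mitochondria. When oxygen is present, prolyl hydroxylases mark the hypoxia-inducible factor HIF1A for destruction, and when oxygen is scarce HIF1A binds DNA with its partner ARNT and raises transcription of glycolytic enzymes and of genes such as Bnip3 and Ndrg1. Macrophages and activated DC are known to raise glycolysis, and in macrophages inflammatory signals can raise HIF1A at normal oxygen.

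Levels are in counts per 1000000 reads (CPM) on the library sizes that the authors scaled, and a difference between libraries is taken on log2(CPM + 1). A member was counted as at least 2-fold higher or lower when this difference reached 1 in size and the higher library of the pair had at least 10 CPM. Folds are ratios of CPM, and a range after a fold is its 95% interval from counting error on estimated reads, which leaves out variation between mice, sorts and libraries. The libraries held 44425908 to 63817502 estimated reads each. Of the 34 members, 29 reached 10 CPM in at least 1 library. Pfkm, Ldhb, P4ha2, Ankrd37 and Adm did not, and members at low levels that passed in 1 library only, such as Egln3, had to stand higher there. In bulk RNA, fewer cells of a type and less RNA per cell cannot be told apart.

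The labels were checked against marker genes. The summed level of 6 cDC1 markers was 286 CPM in the CD103int DC, 1075 in cDC1, 326 in cDC2 and 309.9 in macrophages. Most of it was Irf8, at 193, 704, 226 and 268 CPM in the same order. Itgae, the gene of CD103, stood at 13.2, 77.0, 1.10 and 5.50 CPM. The summed level of 9 macrophage markers was 2313 CPM in the CD103int DC, 677 in cDC1, 3890.0 in cDC2 and 3607 in macrophages, so the library labelled cDC2 carried as much of them as the library labelled macrophage. The 6 cDC2 markers summed to 2483 CPM in the CD103int DC, 1182 in cDC1, 2139 in cDC2 and 2397 in macrophages, so by sum the library labelled cDC2 was not the highest. In cDC2 and macrophages that sum was mostly Sirpa (1062 and 1212 CPM) and Itgam (638 and 945). Single markers went different ways, with Mgl2 highest in the CD103int DC (807 CPM) and Irf4 and Cd209a highest in cDC1 (152 and 257 CPM). Markers of conventional DC summed to 1387 CPM in the CD103int DC, 1219.7 in cDC1, 1511 in cDC2 and 621 in macrophages. Most of that sum was Itgax, at 1280.2, 769.7, 1438 and 516 CPM in the same order. The other markers of that list, Zbtb46, Dpp4 and Flt3, were highest in cDC1, at 152, 119 and 179 CPM. Dpp4 and Flt3, but not Zbtb46, stood lower in the CD103int DC and cDC2 libraries than in macrophages. Monocyte markers summed to 1152, 974, 1196 and 4309.6 CPM in the same order of libraries. Neutrophil markers (3 of 6 in the table) stayed between 12 and 169.7 CPM, and tumour epithelial markers (3 of 6) were 199.8, 425, 120.1 and 89.9 CPM, nearly all of it Cdh1. Fibroblast, T cell and NK cell markers stood at 0.348 to 43.7 CPM in all 4 libraries. Endothelial markers stood at 101 to 472 CPM, nearly all of it Kdr (63.9 to 425) and Pecam1 (29.7 to 57.5), with Cdh5 at 1.27 to 16.6 and Egfl7 at 0 to 0.801. Plasmacytoid DC markers summed to 129 CPM in the CD103int DC, 665 in cDC1, 165 in cDC2 and 254 in macrophages, and proliferation markers to 401, 387, 231 and 191 CPM in the same order. Egfl7, Klrb1c and Clec4a4 were at 0 in cDC1, where 454 genes of the table were at 0, against 10 to 20 in the other libraries. The macrophage column has another name prefix than the other 3, and if that marks a batch, its effect cannot be told apart from that of being a macrophage.

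The glycolysis genes formed a gradient, high in the CD103int DC, close behind in cDC2, and low in cDC1 and, for many of them, in macrophages. Summed over the 17 enzymes from hexokinase to lactate dehydrogenase, the CD103int DC library held 10945 CPM, cDC1 6115, cDC2 9878 and macrophages 7183. These sums were 1.12%, 0.675%, 1.02% and 0.614% of the column totals in the same order, a share that does not depend on how the authors scaled the columns. The 14 hypoxia genes summed to 830.2 CPM in the CD103int DC, 558 in cDC1, 777 in cDC2 and 869 in macrophages. As a share of the column, the hypoxia genes were 0.0852% in the CD103int DC, 0.0616% in cDC1, 0.0802% in cDC2 and 0.0743% in macrophages. By level the macrophage library was thus highest for the hypoxia genes, and by share the CD103int DC library was. The order by level rested on Hif1a, and without it the other 13 summed to 666 CPM in the CD103int DC, 379 in cDC1, 609 in cDC2 and 583 in macrophages.

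**Figure D1:**
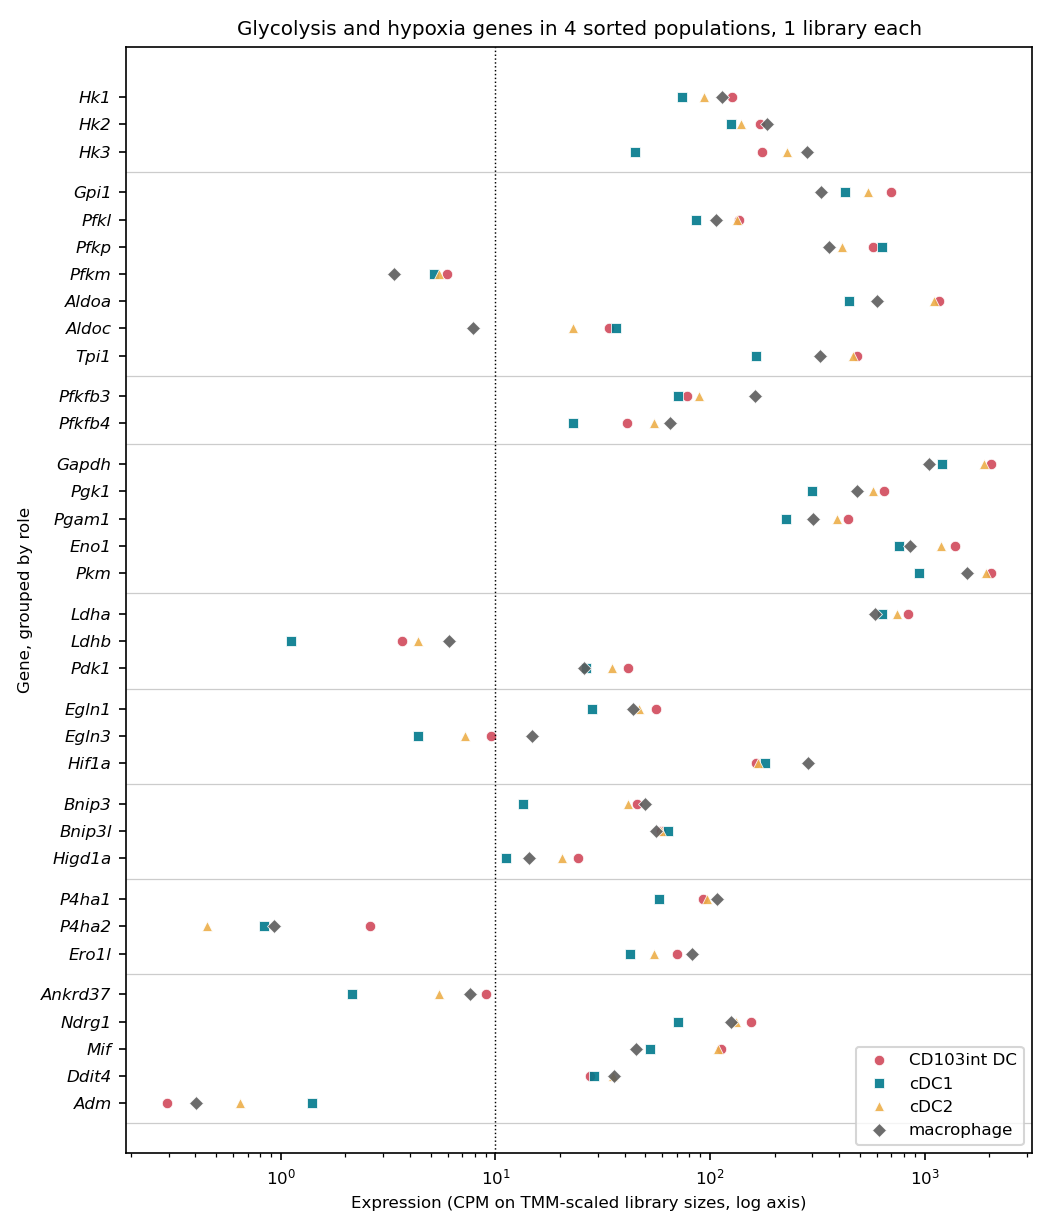
Level of each of the 34 genes (CPM on the authors' scaled library sizes, log axis) in the 4 libraries, with rows grouped by role and the dotted line at 10 CPM. Most lower glycolytic genes run from cDC1 or macrophage at the low end to the CD103int DC at the high end, while Hk3, Pfkfb3 and Hif1a are highest in the macrophage library at 283, 162 and 286 CPM.

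Of the 29 members that passed, 16 were highest in the CD103int DC library, where 18.2% of all 8724 genes that passed were highest. Some of these ranks were near ties with cDC2. Pfkl (1.02-fold, 0.987 to 1.06) and Mif (1.03-fold, 0.997 to 1.07) lay within counting error of it. Tpi1, Pkm and Aldoa were 1.04-, 1.05- and 1.06-fold above it, and none of the 16 reached 2-fold over cDC2. Another 3 (Aldoc, Bnip3l and Pfkp) were highest in cDC1 (31.1% of all genes), 0 in cDC2 (12.3%) and 10 in macrophages (38.3%). The genes highest in the CD103int DC were mostly glycolytic, 12 of the 18 glycolysis genes that passed and 4 of the 11 hypoxia genes. The same library was highest for 61 of 77 nuclear genes of oxidative phosphorylation that passed, a larger share than of the glycolysis genes. Lowest were 2 members in the CD103int DC (Ddit4 and Hif1a, 15.9% of all genes), 19 in cDC1 (38.7%), 0 in cDC2 (17.3%) and 8 in macrophages (28.1%). With columns rescaled to equal totals, 3 members were highest in cDC2 and 4 in macrophages, and the shares over all genes are not given for that setting.

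Against cDC1, the CD103int DC had more of most members. Of 28 members that passed in this pair, 9 were at least 2-fold higher (9.16% of all genes) and 0 at least 2-fold lower (5.46%). The 9 were Hk3, Aldoa, Tpi1, Pgk1 and Pkm of glycolysis, and Bnip3, Higd1a, Ndrg1 and Mif of the hypoxia genes. The median difference was 0.76 over members and 0.03 over all genes, with 23 members above 0 and 5 below. Medians of the glycolysis genes (0.76) and the hypoxia genes (0.84) were alike. Columns were also rescaled to equal totals without the ribosomal RNA-like entries Gm42418 and Gm26917 and the mitochondrial genes. Under that setting 5 members were at least 2-fold higher (6.95% of all genes). They were Aldoa, Bnip3, Hk3 and Tpi1, and Ankrd37, which then passed the minimum. Pgk1, Pkm, Higd1a, Ndrg1 and Mif were then under 2-fold. The split over all genes changed to 628 higher and 761 lower, against 773 and 461 as deposited. The ribosomal and nuclear RNA entries summed to 76642 CPM (CD103int DC) and 118832 CPM (cDC1), and their part in the result was not tested.

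Against cDC2, the members lay close together. None of 28 was at least 2-fold higher (0, against 1.56% of all genes) or lower (0, against 0.665%). The median was 0.15 over members and 0.02 over all genes, and 21 members were above 0 and 7 below. Aldoc had the highest difference of the members counted, at 0.53, and Pfkfb4 the lowest, at -0.41. P4ha2, at 2.61 CPM in the CD103int DC and 0.453 in cDC2, differed more but lay under the minimum.

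Against macrophages, the glycolysis and hypoxia genes parted. Of 29 members, 3 were at least 2-fold higher in the CD103int DC (Aldoc, Gpi1 and Mif, 4.35% of all genes) and 1 at least 2-fold lower (Pfkfb3, 8.31%). The median was 0.36 over members and -0.07 over all genes. For the glycolysis genes it was 0.53, or 0.79 with equal totals, and for the hypoxia genes -0.13, which turned to 0.13 with equal totals. Equal totals moved the median over all genes to 0.20 and the split over all genes to 644 higher and 400 lower, against 359 and 686 as deposited, and gave 5 members higher and 0 lower.

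**Figure D2:**
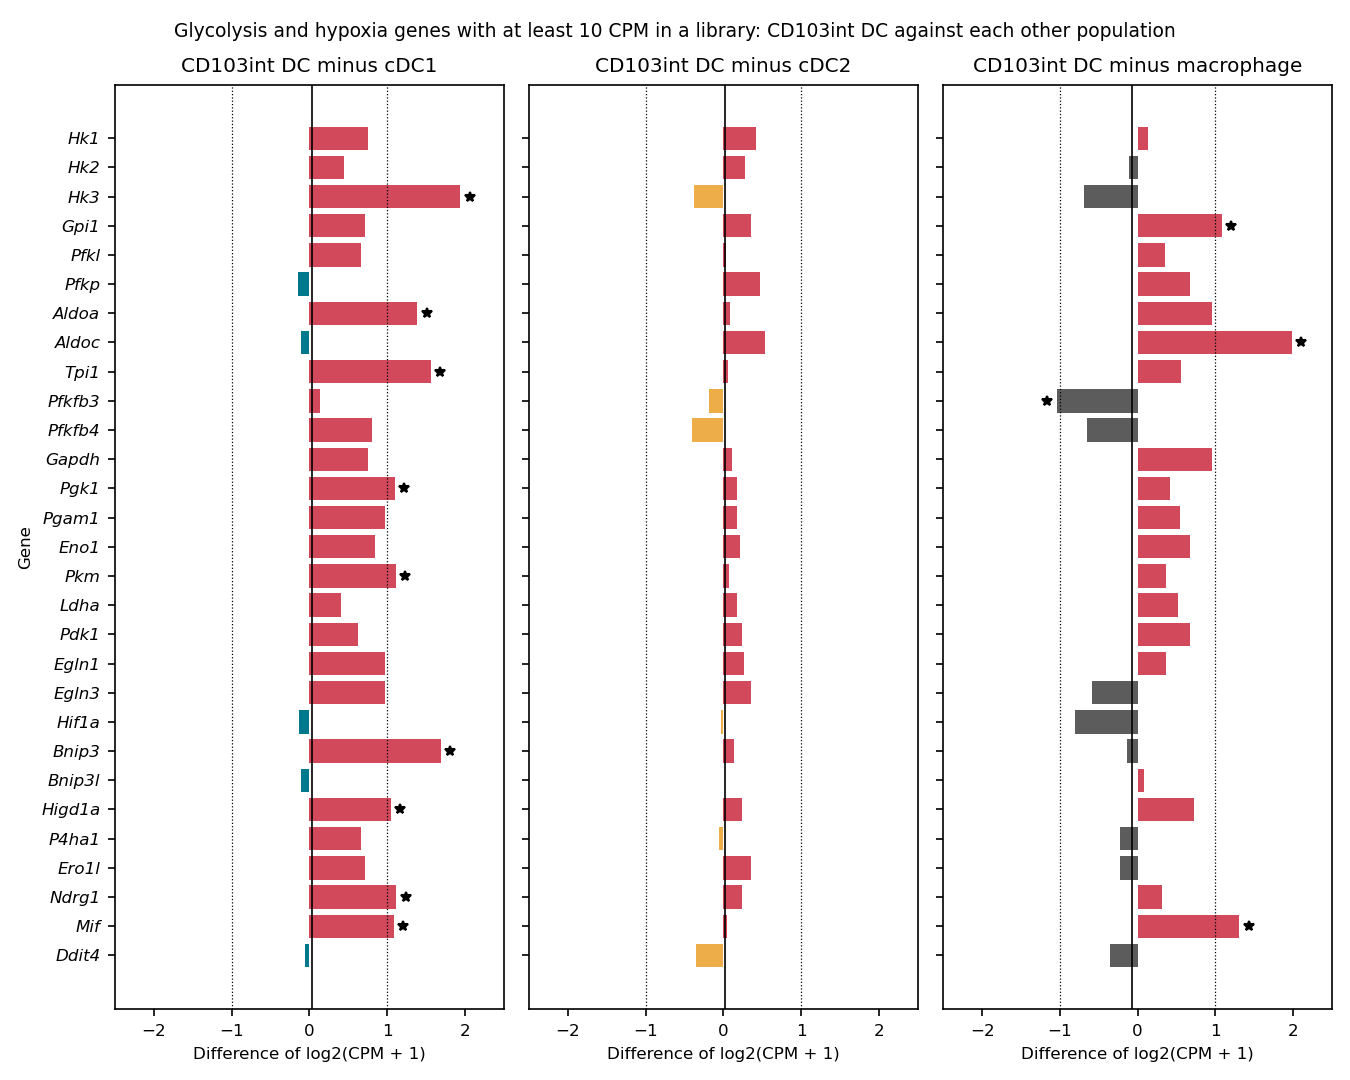
Difference in log2(CPM + 1) between the CD103int DC library and each of the other libraries (1 panel each) for the 29 genes with at least 10 CPM in some library, with bars coloured by the library that is higher. Dotted lines mark a 2-fold difference, the solid line the median over all genes, and stars the genes counted, which number 9, 0 and 4 from left to right; Egln3 was under the minimum in the first and second panels.

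The other 3 pairs filled in the gradient. In cDC1 against cDC2, 0 of 28 members were at least 2-fold higher (7.27% of all genes) and 7 at least 2-fold lower (9.56%), with a median of -0.64, against -0.01 over all genes. The 7 were Hk3, Aldoa, Tpi1, Pfkfb4, Pkm, Bnip3 and Mif. In cDC1 against macrophages, 1 of 29 was at least 2-fold higher (Aldoc, 9.21%) and 6 at least 2-fold lower (15.8%), with a median of -0.55, against -0.09 over all genes. The 6 were Hk3, Pfkfb3, Pfkfb4, Tpi1, Bnip3 and Egln3. In cDC2 against macrophages, 2 of 29 were at least 2-fold higher (Aldoc and Mif, 1.78%) and 0 lower (6.01%), with a median of 0.20, against -0.09 over all genes. Scaling weighed on both pairs with macrophages. Equal totals moved the median over all genes to 0.29 for cDC1 and 0.18 for cDC2, and the members' median to -0.19 and 0.47. The split over all genes became 1471 higher and 885 lower for cDC1 (780 and 1339 as deposited) and 352 and 230 for cDC2 (145 and 489 as deposited). In cDC1 against cDC2, equal totals without the ribosomal RNA-like and mitochondrial entries gave 944 higher and 696 lower, against 615 and 809 as deposited, with a members' median of -0.45.

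Promoters are printed for the 4 members whose log2(CPM + 1) ranged widest over the libraries among those that passed, Hk3, Aldoc, Bnip3 and Tpi1. Each line is a RefSeq window of 300 bases on the gene's strand, from 250 before to 50 after an annotated start (build GRCm38.p6), and capitals mark the core letters that HIF can bind, ACGTG or GCGTG, on either strand. Hk3 lies at chr13:55021336-55021635 (minus strand), Aldoc with start a at chr11:78322823-78323122 and start b at chr11:78323948-78324247 (plus strand), Tpi1 at chr6:124814109-124814408 (minus strand) and Bnip3 at chr7:138909457-138909756 (minus strand).
Hk3: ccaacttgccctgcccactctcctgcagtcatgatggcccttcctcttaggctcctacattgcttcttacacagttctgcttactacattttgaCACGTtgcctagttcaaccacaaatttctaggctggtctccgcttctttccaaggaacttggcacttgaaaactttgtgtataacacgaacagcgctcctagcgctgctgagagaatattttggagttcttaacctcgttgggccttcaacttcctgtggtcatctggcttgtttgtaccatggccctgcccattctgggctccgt
Aldoc, start a: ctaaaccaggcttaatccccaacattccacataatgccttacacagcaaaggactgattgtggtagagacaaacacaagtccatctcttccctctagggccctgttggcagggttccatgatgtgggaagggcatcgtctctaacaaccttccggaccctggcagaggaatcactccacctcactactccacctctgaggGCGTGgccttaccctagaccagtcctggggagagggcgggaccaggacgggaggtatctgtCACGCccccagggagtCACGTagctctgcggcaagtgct
Aldoc, start b: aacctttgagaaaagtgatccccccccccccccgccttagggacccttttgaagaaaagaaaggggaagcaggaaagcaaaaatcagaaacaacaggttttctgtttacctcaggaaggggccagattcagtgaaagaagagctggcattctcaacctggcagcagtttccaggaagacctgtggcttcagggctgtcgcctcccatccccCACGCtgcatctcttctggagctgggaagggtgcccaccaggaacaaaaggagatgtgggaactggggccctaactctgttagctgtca
Tpi1: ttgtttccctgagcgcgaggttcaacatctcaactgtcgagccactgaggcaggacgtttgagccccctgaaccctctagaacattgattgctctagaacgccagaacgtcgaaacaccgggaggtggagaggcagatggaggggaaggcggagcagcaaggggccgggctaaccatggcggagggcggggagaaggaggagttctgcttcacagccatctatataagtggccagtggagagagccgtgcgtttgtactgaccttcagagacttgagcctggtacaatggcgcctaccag
Bnip3: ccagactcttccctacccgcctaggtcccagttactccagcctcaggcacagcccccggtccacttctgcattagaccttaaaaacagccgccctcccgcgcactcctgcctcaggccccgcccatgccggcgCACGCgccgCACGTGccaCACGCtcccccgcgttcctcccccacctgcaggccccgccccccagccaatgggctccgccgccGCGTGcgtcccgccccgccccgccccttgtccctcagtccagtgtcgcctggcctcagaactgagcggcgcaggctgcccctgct
Hk3 held 1 match, the windows of Aldoc 3 and 1, Tpi1 0 and Bnip3 5, of which 2 overlap in the palindrome CACGTG, which is also an E-box. Counted from the start as 1, the matches of Bnip3 began at -117, -108, -107, -99 and -35. Of the 34 members, 32 matched a window (Ero1l under the RefSeq symbol Ero1a, and not Ndrg1 or Bnip3l), and 30 of the 32 (93.8%) held a match in at least 1 window. Gpi1 and Tpi1 held 0. Counted over windows, 38 of 45 (84.4%) held a match, against 43.8% of all 32851 windows. The share was 46.7% over 27025 genes and 69.5% over the 6784 genes of the table that passed 10 CPM and had a window. A match is a string of letters and was not tested as a binding site.

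The hexokinases phosphorylate glucose on entry and so hold it in the cell, and Hk3 is the form found mainly in blood and myeloid cells. Hk3 (ENSMUSG00000025877.14, chromosome 13, 55005985 to 55021385, minus strand) stood at 175 CPM in the CD103int DC, 44.9 in cDC1, 228 in cDC2 and 283 in macrophages. The cDC1 library stood apart below the other 3. Hk3 was 3.90-fold (3.72 to 4.09) above cDC1 in the CD103int DC. In cDC1 it was lower by 5.08-fold (4.85 to 5.32) than in cDC2 and by 6.29-fold (6.02 to 6.58) than in macrophages, which was the widest span of the members that passed. Hk1, the ubiquitous form bound to mitochondria, stood at 126 CPM in the CD103int DC, 73.8 in cDC1, 93.6 in cDC2 and 114 in macrophages. Hk2, the form induced by insulin and by HIF, stood at 170.5 CPM in the CD103int DC, 125 in cDC1, 140.2 in cDC2 and 184 in macrophages. Neither gene reached 2-fold in any pair, and which of the CD103int DC and macrophages was higher for Hk2 turned with equal totals.

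Per kilobase of exon, the make-up of the hexokinases therefore differed. Hk3 held 52.3% of the family's CPM per kilobase in the CD103int DC, 29.2% in cDC1, 64.3% in cDC2 and 63.4% in macrophages. Hk2 held the largest share in cDC1, with 50.1%, against 31.4% in the CD103int DC, 24.4% in cDC2 and 25.5% in macrophages. Such shares come from within 1 library and do not change with the scaling of the columns, but they depend on the length used. By the longest coding transcript, Hk2 still held the largest share in cDC1, with 42.1%, but Hk1 (32.0%) came before Hk3 (25.9%).

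Upper glycolysis turns glucose phosphate into triose phosphates. Aldoa, the main aldolase (ENSMUSG00000030695.16, chromosome 7, 126795234 to 126800751, minus strand), stood at 1166 CPM in the CD103int DC, 446 in cDC1, 1103 in cDC2 and 601 in macrophages. It was high in a pair of libraries and low in the other pair. The fold of the CD103int DC was 2.62 (2.58 to 2.66) over cDC1, 1.06 (1.04 to 1.07) over cDC2 and 1.94 (1.92 to 1.97) over macrophages. Tpi1, triosephosphate isomerase (ENSMUSG00000023456.15, chromosome 6, 124810586 to 124814296, minus strand), stood at 482 CPM in the CD103int DC, 163 in cDC1, 462 in cDC2 and 327 in macrophages. Its CD103int DC level was 2.96-fold (2.88 to 3.03) above cDC1, and in cDC1 it was lower by 2.83-fold (2.76 to 2.91) than in cDC2. Gpi1, glucose-6-phosphate isomerase, stood at 695 CPM in the CD103int DC, 425 in cDC1, 545 in cDC2 and 328 in macrophages. Here macrophages were lowest, and the CD103int DC was 2.12-fold (2.08 to 2.16) above them.

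Aldoc, the aldolase best known from brain, and Pfkp were the glycolysis genes highest in cDC1 among those that passed. Aldoc (ENSMUSG00000017390.15, chromosome 11, 78322968 to 78327781, plus strand) stood at 33.9 CPM in the CD103int DC, 36.5 in cDC1, 23.1 in cDC2 and 7.82 in macrophages. The macrophage library was lowest, by 4.33-fold (3.90 to 4.82) below the CD103int DC, by 4.67-fold (4.20 to 5.20) below cDC1 and by 2.96-fold (2.64 to 3.32) below cDC2. Per kilobase, Aldoc was a minor aldolase in every library, with 2.53% of the aldolases in the CD103int DC, 6.82% in cDC1, 1.84% in cDC2 and 1.15% in macrophages.

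Phosphofructokinase, the committed step, is built from 3 kinds of subunit. Pfkp, the platelet type, stood at 574 CPM in the CD103int DC, 635 in cDC1, 414 in cDC2 and 359 in macrophages. It was 1 of 3 members highest in cDC1, although its exons share 748 bases with Pitrm1 on the opposite strand, which stood at 18.1 to 31.4 CPM. Pfkl, the liver type, stood at 137 CPM in the CD103int DC, 86.2 in cDC1, 134 in cDC2 and 107 in macrophages. Pfkm, the muscle type, stayed at 3.35 to 5.92 CPM in all 4 libraries. Per kilobase, Pfkp held 65.7% of the family in the CD103int DC, 76.6% in cDC1, 58.7% in cDC2 and 61.1% in macrophages, and Pfkl 31.5%, 20.9%, 38.2% and 36.6% in the same order of libraries. By the longest coding transcript, the shares of Pfkp were 78.1%, 86.0%, 72.5% and 74.3%.

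The bifunctional enzymes make and remove the fructose bisphosphate that activates phosphofructokinase, and both genes were highest in macrophages as deposited. Pfkfb3, in which the kinase side dominates, stood at 78.0 CPM in the CD103int DC, 70.7 in cDC1, 88.9 in cDC2 and 162 in macrophages. The 3 DC libraries lay together, and the CD103int DC was lower than macrophages by 2.07-fold (2.0 to 2.15). Equal totals took this difference under 2-fold. Pfkfb4, the other gene of the pair, known as induced by hypoxia, stood at 41.1 CPM in the CD103int DC, 23.1 in cDC1, 54.8 in cDC2 and 64.8 in macrophages. In cDC1 it was lower than in cDC2 by 2.37-fold (2.21 to 2.54) and than in macrophages by 2.80-fold (2.62 to 3.0). With equal totals Pfkfb4 was highest in cDC2.

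**Figure D3:**
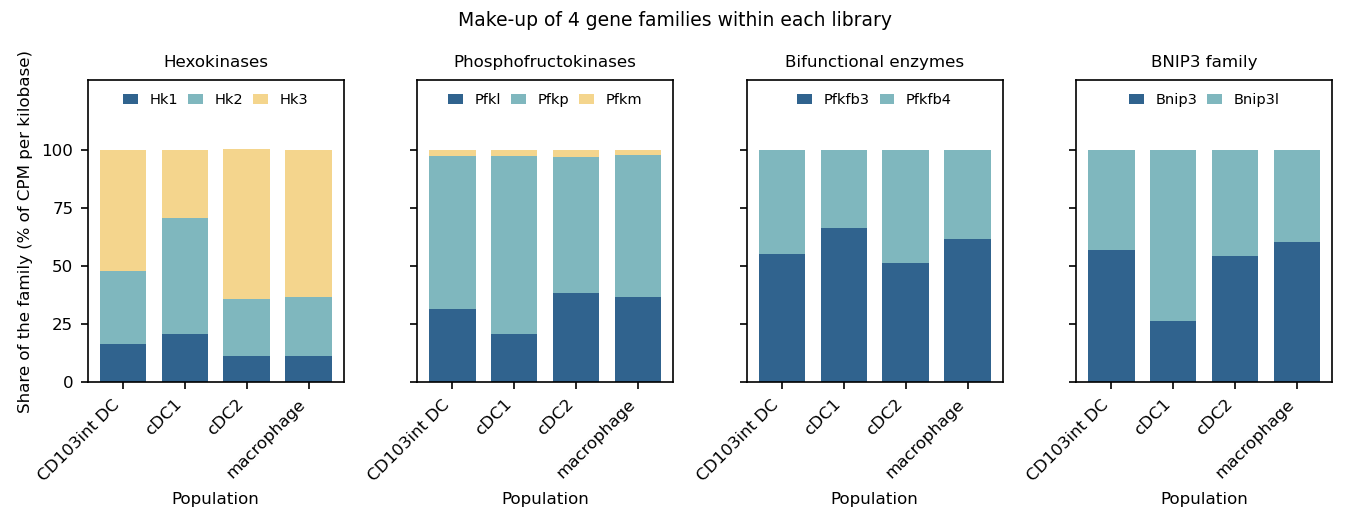
Share of each family held by each of its genes (percent of CPM per kilobase of exon) in the 4 libraries, for the hexokinases, phosphofructokinases, bifunctional enzymes and the BNIP3 family. Hk3 holds 29.2% of the hexokinases in cDC1 and 52.3% to 64.3% in the other libraries, and Bnip3 26.3% of its family in cDC1 and 54.4% to 60.3% in the others.

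Lower glycolysis, which recovers ATP, gave the steadiest pattern, with 5 of 5 genes highest in the CD103int DC and second in cDC2. Pkm, pyruvate kinase (ENSMUSG00000032294.17, chromosome 9, 59656368 to 59679375, plus strand), stood at 2031 CPM in the CD103int DC, 941 in cDC1, 1934 in cDC2 and 1583 in macrophages. The CD103int DC was 2.16-fold (2.13 to 2.18) above cDC1, 1.05-fold (1.04 to 1.06) above cDC2 and 1.28-fold (1.27 to 1.29) above macrophages. Gene-level values do not tell the M1 and M2 splice forms of Pkm apart. Pgk1, phosphoglycerate kinase, stood at 646 CPM in the CD103int DC, 299.9 in cDC1, 575 in cDC2 and 482 in macrophages. The CD103int DC was 2.15-fold (2.11 to 2.19) above cDC1. Pgam1, phosphoglycerate mutase, stood at 442 CPM in the CD103int DC, 225 in cDC1, 392 in cDC2 and 302 in macrophages. At 1.96-fold (1.92 to 2.01) over cDC1 it fell just short of the count.

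Gapdh and Eno1 shared the top of the gradient and had a different low end. Gapdh, the dehydrogenase often used as a reference gene, stood at 2036 CPM in the CD103int DC, 1208 in cDC1, 1884 in cDC2 and 1049 in macrophages. The CD103int DC stood 1.69-fold (1.67 to 1.70) above cDC1 and 1.94-fold (1.92 to 1.96) above macrophages. Eno1, enolase, stood at 1379.9 CPM in the CD103int DC, 764 in cDC1, 1194 in cDC2 and 858 in macrophages. Whether cDC1 or macrophages were lowest for Eno1 turned with equal totals. Near-identical copies of these genes could share their reads, and how the counting divided such reads is unknown here. For Gapdh, 11 copies in the table summed to 151 CPM in the CD103int DC, 80.9 in cDC1, 198 in cDC2 and 101 in macrophages, and for Pgk1 the copy Gm5537 held 24.8 to 53.1 CPM. Adding the copies of Gapdh, Pgk1, Pgam1, Eno1, Pkm, Gpi1 and Bnip3l to their genes left each count of members within 1.5-fold.

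At the end of the pathway, lactate dehydrogenase reduces pyruvate to lactate. Ldha, the form that favours lactate, stood at 840.4 CPM in the CD103int DC, 634 in cDC1, 746 in cDC2 and 587 in macrophages. Its span over the libraries was 1.43-fold (1.41 to 1.45), one of the narrow ones among the enzymes. Ldhb stood at 3.66 CPM in the CD103int DC, 1.12 in cDC1, 4.36 in cDC2 and 6.07 in macrophages, and per kilobase Ldha held 97.9% to 99.6% of the pair in all 4 libraries. Pdk1, the kinase that holds pyruvate out of the mitochondrial cycle by shutting down pyruvate dehydrogenase, stood at 41.6 CPM in the CD103int DC, 26.5 in cDC1, 35.1 in cDC2 and 25.8 in macrophages.

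Among the oxygen sensing genes, the transcript of the factor did not follow those of its target enzymes. Hif1a (ENSMUSG00000021109.13, chromosome 12, 73901375 to 73947530, plus strand) stood at 164 CPM in the CD103int DC, 179.7 in cDC1, 167 in cDC2 and 286 in macrophages. The 3 DC libraries differed by at most 1.10-fold (1.06 to 1.13), and the CD103int DC was lower than macrophages by 1.74-fold (1.70 to 1.79). HIF1A is known to be controlled mainly through protein stability, which RNA does not measure. Egln1, the main HIF prolyl hydroxylase, stood at 56.3 CPM in the CD103int DC, 28.2 in cDC1, 46.7 in cDC2 and 43.7 in macrophages. Its ratio of the CD103int DC over cDC1 was 2.0 (1.88 to 2.13) in CPM, and 0.97 on log2(CPM + 1), just outside the count. Egln3, a hydroxylase that is itself a HIF target, stood at 9.51 CPM in the CD103int DC, 4.38 in cDC1, 7.18 in cDC2 and 14.8 in macrophages. In cDC1 it was lower than in macrophages by 3.38-fold (2.90 to 3.94), and per kilobase Egln3 held 31.4% of the pair with Egln1 in macrophages, against 17.2% to 18.6% in the 3 DC libraries.

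The mitochondrial genes split by paralog. Bnip3, a receptor for the removal of mitochondria (ENSMUSG00000078566.8, chromosome 7, 138890836 to 138909519, minus strand), stood at 45.5 CPM in the CD103int DC, 13.4 in cDC1, 41.4 in cDC2 and 49.8 in macrophages. The cDC1 library stood apart below the other 3. The CD103int DC level of Bnip3 was 3.40-fold (3.12 to 3.71) that of cDC1, and in cDC1 it was lower than in macrophages by 3.73-fold (3.42 to 4.06). Its paralog Bnip3l stood at 59.1 CPM in the CD103int DC, 63.9 in cDC1, 59.2 in cDC2 and 55.8 in macrophages. With a span of 1.15-fold (1.09 to 1.20), Bnip3l varied least of all 34 members. Per kilobase Bnip3 held 56.7% of the pair in the CD103int DC, 26.3% in cDC1, 54.4% in cDC2 and 60.3% in macrophages. Higd1a, a small inner membrane protein induced by hypoxia, stood at 24.2 CPM in the CD103int DC, 11.2 in cDC1, 20.4 in cDC2 and 14.3 in macrophages, with the CD103int DC 2.17-fold (1.96 to 2.40) above cDC1.

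The hydroxylase and folding genes serve secreted proteins. P4ha1, a catalytic subunit of collagen prolyl hydroxylase, stood at 92.6 CPM in the CD103int DC, 58.1 in cDC1, 96.5 in cDC2 and 108 in macrophages. P4ha2 stood at 2.61 CPM in the CD103int DC, 0.836 in cDC1, 0.453 in cDC2 and 0.934 in macrophages. Fibroblast markers, from cells rich in these hydroxylases, summed to 10.7, 10.1, 43.7 and 20.1 CPM in the same order, and their part in the values was not tested. Ero1l, the oxidase that forms disulphide bonds in the endoplasmic reticulum, stood at 70.3 CPM in the CD103int DC, 42.5 in cDC1, 54.7 in cDC2 and 82.0 in macrophages. For P4ha1 and Ero1l, whether the CD103int DC or macrophages were higher turned with equal totals.

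The remaining hypoxia genes took several forms. Mif, the cytokine macrophage migration inhibitory factor (ENSMUSG00000033307.7, chromosome 10, 75859353 to 75860240, minus strand), stood at 113 CPM in the CD103int DC, 52.6 in cDC1, 109 in cDC2 and 45.1 in macrophages. The CD103int DC was 2.15-fold (2.05 to 2.25) above cDC1 and 2.51-fold (2.39 to 2.63) above macrophages. Ndrg1, a stress response gene induced by hypoxia, stood at 156 CPM in the CD103int DC, 71.2 in cDC1, 132 in cDC2 and 125 in macrophages. The CD103int DC was 2.19-fold (2.10 to 2.28) above cDC1. Ankrd37, an ankyrin repeat gene and HIF target, stood at 9.07 CPM in the CD103int DC, 2.14 in cDC1, 5.45 in cDC2 and 7.61 in macrophages. Its ratio of the CD103int DC over cDC1 was 4.24 (3.43 to 5.28), but as deposited it stayed under the minimum and was not counted.

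By value, Ddit4 and Adm were lowest in the CD103int DC and not in cDC1. Ddit4, an inhibitor of the growth kinase mTOR, stood at 27.7 CPM in the CD103int DC, 28.9 in cDC1, 35.5 in cDC2 and 35.6 in macrophages. The span of Ddit4 was 1.29-fold (1.20 to 1.37). Its ratio of the CD103int DC over cDC1 was 0.959 (0.892 to 1.03), within counting error. In cDC1 Ddit4 was lower by 1.23-fold than in cDC2 (1.15 to 1.32) and than in macrophages (1.15 to 1.32). Adm, which encodes the vessel-dilating peptide adrenomedullin, stood at 0.296 CPM in the CD103int DC, 1.39 in cDC1, 0.647 in cDC2 and 0.403 in macrophages. It was highest in cDC1 and lowest in the CD103int DC, at levels where few reads were counted.

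Other genes of the same pathways were read from lists that hold none of the 34 members. Slc2a1, the basal glucose carrier, stood at 223 CPM in the CD103int DC, 128 in cDC1, 196 in cDC2 and 222 in macrophages, and Slc16a3, the lactate exporter induced by hypoxia, at 264, 64.7, 221 and 309 CPM in the same order. Of the 6 transport genes that passed, 2 were at least 2-fold above cDC1 in the CD103int DC (Slc16a1 and Slc16a3) and 1 lower (Slc2a3), with a median of 0.63, beside 9.16% higher and 5.46% lower over all genes. The pentose phosphate genes had 1 of 7 higher (Pgd, median 0.22) and the glycogen genes 1 of 7 higher (Pygl, median 0.57), with Pgd at 341 CPM in the CD103int DC, 121 in cDC1, 307 in cDC2 and 193 in macrophages. Pygl, glycogen phosphorylase, stood at 88.0 CPM in the CD103int DC, 14.3 in cDC1, 73.3 in cDC2 and 76.7 in macrophages. The other glycolytic enzymes and regulators that passed had 0 of 9 higher and 1 lower (Adpgk, median 0.19). Counts of 1 in lists of this size lie near the shares over all genes. Fbp1 was not analysed here.

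Further hypoxia targets and regulators of the HIF pathway were counted in the same way. Of 11 targets that passed, 7 were at least 2-fold above cDC1 in the CD103int DC (9.16% of all genes) and 0 below (5.46%), with a median of 1.41. Against cDC2 the counts were 0 above (1.56%) and 0 below (0.665%), with a median of 0.24. Vegfa, the vessel growth factor, stood at 72.6 CPM in the CD103int DC, 11.6 in cDC1, 74.2 in cDC2 and 119 in macrophages. Plin2, a lipid droplet coat protein, stood at 345 CPM in the CD103int DC, 107 in cDC1, 403 in cDC2 and 596 in macrophages, and Hmox1, haem oxygenase, at 210.3, 38.1, 152 and 164 CPM in the same order. Of 6 regulators of the HIF pathway outside the members, 0 differed by 2-fold or more between the CD103int DC and cDC1 (median 0.04). Against macrophages 1 of 6 was lower (8.31% of all genes). It was Cited2, which restrains HIF, at 54.6 CPM in the CD103int DC and 122 in macrophages. Counts of 0 or 1 in lists this short lie near the shares over all genes. Epas1, which encodes HIF2A, stayed at 1.01 to 2.0 CPM in all 4 libraries.

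**Figure D4:**
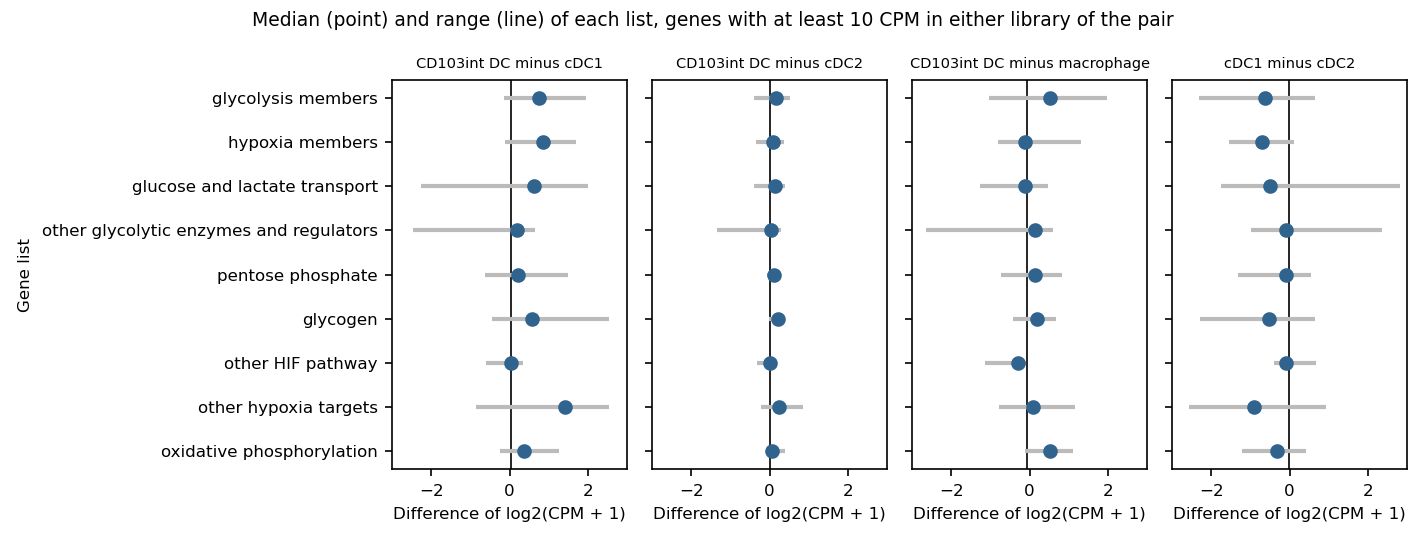
Median (point) and range (line) of the difference in log2(CPM + 1) for each gene list in 4 of the 6 pairs of libraries, over genes with at least 10 CPM in either library of the pair; the vertical line is the median over all genes. In the first panel the other hypoxia targets have a median of 1.41 and the hypoxia genes 0.84, against 0.37 for oxidative phosphorylation.

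Oxidative phosphorylation genes were read beside glycolysis as the other route to ATP. Of 80 such nuclear genes, 77 passed in the CD103int DC against cDC1, with a median of 0.37, against 0.76 for the glycolysis genes. Against cDC2 the medians were 0.06 and 0.17, and against macrophages 0.53 and 0.53. Per kilobase, the summed glycolytic enzymes stood to the summed oxidative phosphorylation genes as 0.673 in the CD103int DC, 0.469 in cDC1, 0.657 in cDC2 and 0.639 in macrophages. The cDC1 library was thus lowest in glycolytic transcripts relative to oxidative ones, a ratio that holds under any scaling of the columns. Other measures moved with the low values of cDC1, among them its low macrophage marker sum of 677 CPM, its 454 genes at 0 and its summed early response genes at 3614 CPM, against 4819 in the CD103int DC, 4939.6 in cDC2 and 6820.3 in macrophages. Of the early response genes, Fos, Fosb, Junb, Egr1 and Atf3 were lowest in cDC1. Hspa1b was highest there (584 CPM), Hspa1a stood at 579 CPM in cDC1 and in cDC2, and Jun (546 CPM) stood above the CD103int DC (340.0) and cDC2 (371). The part of these measures in the differences was not tested.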

How the data were processed

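The 4 sorted populations were each sequenced as 1 bulk RNA library. The authors deposited 1 table of signal values, per its name CPM with TMM scaling of library sizes, filtered on genes. Column-purified RNA was treated with DNase I and made into directional libraries, per the labels' protocols. Not given in the sources used here were aligner, counter, strand setting and build. Each of the 13976 identifiers with its symbol matched GENCODE M21 (GRCm38), from which coordinates and exon lengths were taken. The 4 columns were matched to populations by name, and 0 columns were left unused.

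Each column's values were multiples of 1/100 of a step, and 70.6% to 79.0% of those above 0 were whole multiples of the step at a tolerance of 0.001. The step was read as 1 estimated read (0.0174 to 0.0216 CPM). Intervals are 95% binomial intervals on estimated reads and cover counting error only, since reads without molecular identifiers can repeat 1 molecule. The values are not whole reads, so no count model was run.

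Differences were taken on log2(CPM + 1), which understates changes of low genes, and counted at 2-fold or more with at least 10 CPM in the higher library of the pair. Each of the 6 pairs was compared, with the same count over all genes beside it. Copies are genes that share at least 400 bases with a member in runs of 50. Alternatives were pseudocounts of 0.1 and 5 CPM, minimums of 1 CPM and none, and columns rescaled to equal totals (with and without Gm42418, Gm26917 and mitochondrial genes) or by median ratios. Sums with copies, and shares by the longest coding transcript, were added after the data were seen. Every member was named, and of the other lists the transporters Slc2a1 and Slc16a3, Epas1, Vegfa and Fbp1, with examples from the 4 genes per list of widest range. The members and lists were chosen with earlier results of these data known. The counting of members was tested on simulated data. Python 3.11.15, numpy 2.4.6, pandas 2.3.3 and scipy 1.17.1 were used.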

Additional observations from a re-analysis of the deposited data

How the results depend on the processing

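Each population had 1 library with no replicate to leave out, and no difference was checked against replicate error. No paired analysis was possible because each population had 1 library and the labels carry no replicate numbers. Of 128 counts of members recomputed under other settings, 111 stayed within 1.5-fold. No difference of 2-fold or more turned its sign under any setting run, and under each equal-totals setting 12 of 204 differences between libraries did, all of them smaller. With a pseudocount of 0.1 CPM, 1 member was at least 2-fold lower in cDC2 than in macrophages (Egln3, 0 as reported), beside 6.30% of all genes. With a minimum of 1 CPM or none, 1 was higher in the CD103int DC than in cDC2 (P4ha2, 0 as reported), beside 1.95% and 1.77% of all genes. With equal totals, 5 members were at least 2-fold higher over macrophages in the CD103int DC (7.88% of all genes), Aldoa and Gapdh besides Aldoc, Gpi1 and Mif. The counts over macrophages were 2 in cDC1 (17.3%) and 5 in cDC2 (4.35%), and 0 were lower in the CD103int DC (4.89%). Under that setting 3 were highest in cDC2 and 4 in macrophages. Leaving out Gm42418, Gm26917 and mitochondrial genes as well, the same counts over macrophages were 5, 2 and 4, with 0 lower in the CD103int DC. Then 5 in the CD103int DC were at least 2-fold above cDC1 (6.95%), 2 were highest in cDC2, 6 in macrophages, and 1 was lowest in cDC2. For the highest and lowest counts with equal totals, shares over all genes are not given here. Equal totals divides each column by its sum, 974649 CPM in the CD103int DC, 905670.0 in cDC1, 968810.2 in cDC2 and 1169346 in macrophages. The ribosomal and nuclear RNA entries summed to 76642, 118832, 67490.2 and 138371 CPM in the same order. Beyond that each of these settings moves all genes of a column together, the cause was not tested. Depth limits Adm (17 to 68 estimated reads in a library) and P4ha2 (21 to 150).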

Other observations

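Some genes of the same pathways outside the 34 members are given as values. Adpgk, a glucokinase that uses ADP in place of ATP, stood at 27.0 CPM in the CD103int DC, 153 in cDC1, 28.9 in cDC2 and 26.5 in macrophages, so that the cDC1 library, lowest for Hk1 and Hk3, was highest for Adpgk, by 5.29-fold over cDC2 and 5.76-fold over macrophages. Slc2a3, a glucose carrier of high affinity, stood at 7.68 CPM in the CD103int DC, 40.5 in cDC1, 4.83 in cDC2 and 9.07 in macrophages, again highest in cDC1, where Slc2a1 was lowest. Eno3, the enolase of muscle, stood at 6.20 CPM in the CD103int DC, 8.24 in cDC1, 17.2 in cDC2 and 43.8 in macrophages, in an order unlike that of Eno1. Vhl, which marks hydroxylated HIF1A for destruction, stood at 31.4 CPM in the CD103int DC, 48.5 in cDC1, 30.0 in cDC2 and 39.6 in macrophages. These genes were among the 4 of widest range in their lists, and none of the values was tested.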
